A study of Saccharomyces cerevisiae with 14 samples.

Results

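FPT1 (systematic name YKR011C) and the 4 genes named beside it on the right arm of chromosome XI of budding yeast, TOF2 (YKR010C), YKR012C, PRY2 (YKR013W) and YPT52 (YKR014C), were followed by their messenger RNA levels in 14 libraries. The members were taken by systematic name from the table of 6664 genes, and all 5 were found and passed the filter on low values, which 6267 genes passed. The study set wild-type BY4741, a haploid MATa laboratory strain carrying his3Δ1, leu2Δ0, met15Δ0 and ura3Δ0, beside strains with the same background and FPT1 replaced by KanMX (fpt1::KanMX), a drug-resistance cassette. Cells were in mid-log growth in the rich glucose medium YEPD or had been moved to ethanol for 2 h at 30 °C. Each medium had 3 wild-type and 4 deletion libraries, and the deletion is represented by 2 strain names, NKI5633 for replicates 1 to 3 and NKI5620 for replicate 4 in each medium. Replicates are called biological in the series description, though separate cultures are not stated, and p-values here measure the spread between these libraries, which may be partly technical.

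The Fpt1 protein is known as a chromatin factor found at tRNA genes and other genes read by RNA polymerase III, and as a negative regulator of the assembly of that machinery. Yeast cells that lose glucose cut back RNA polymerase III activity through the repressor Maf1 and turn from fermentation to respiration. The neighbours work elsewhere in the cell. Tof2 is a nucleolar protein that binds the phosphatase Cdc14 and takes part in silencing of the ribosomal DNA, Pry2 is a secreted sterol-binding protein of the CAP family, and Ypt52 is a Rab5-type GTPase of endosomal transport. Replacing a gene by a marker cassette can alter neighbouring transcription, and the levels of the neighbours in deletion libraries bear on that question.

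In the S288C assembly R64, FPT1 lies on the minus strand at chrXI:461635-462696, with a coding length of 1062 bases. TOF2 (chrXI:458924-461239, minus strand, 2316 bases) follows it downstream, 395 bases beyond the end of the FPT1 coding region. PRY2 (chrXI:463959-464948, plus strand, 990 bases) is transcribed away from FPT1, and 1262 bases separate the 2 coding regions. YPT52 (chrXI:465367-466071, minus strand, 705 bases) faces the end of PRY2 at 418 bases. A leucine tRNA gene lies 253 bases from the end of TOF2 and 2964 bases from FPT1, and its transcript is not measured in these libraries of polyadenylated RNA. YKR012C has no entry in the annotation used. Its name places it on the minus strand between FPT1 and PRY2, where only 1 reading frame of at least 100 codons runs from an ATG to a stop, at chrXI:463739-464116. That frame is 378 bases long and shares 158 bases with the coding region of PRY2, on the opposite strand. Whether the authors counted with strand is not given in the sources used here, so reads from YKR012C and PRY2 cannot be told apart with certainty.

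Upstream sequences are shown for FPT1, PRY2 and YPT52, the members with the largest rises in wild-type ethanol libraries, as described further on. TOF2 also rose as deposited, and its window is described without being printed. Each line gives the 250 bases that lie 300 to 51 bases before the first coding base, 5′ to 3′ on the gene's own strand, from the RefSeq copy of R64 (no transcript starts are annotated there). Windows are chrXI:462747-462996 for FPT1, chrXI:463659-463908 for PRY2 and chrXI:466122-466371 for YPT52. Capitals mark matches to the stress response element CCCCT, the Mig1 core CCCCAC or CCCCGC, the CCAAT box, the carbon source response element and the TATA box TATAAA, each searched on both strands.
FPT1: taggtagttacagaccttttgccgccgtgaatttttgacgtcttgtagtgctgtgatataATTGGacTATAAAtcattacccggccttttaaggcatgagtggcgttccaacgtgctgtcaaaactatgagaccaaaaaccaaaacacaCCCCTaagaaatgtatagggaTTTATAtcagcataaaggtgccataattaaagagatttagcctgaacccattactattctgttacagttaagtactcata
PRY2: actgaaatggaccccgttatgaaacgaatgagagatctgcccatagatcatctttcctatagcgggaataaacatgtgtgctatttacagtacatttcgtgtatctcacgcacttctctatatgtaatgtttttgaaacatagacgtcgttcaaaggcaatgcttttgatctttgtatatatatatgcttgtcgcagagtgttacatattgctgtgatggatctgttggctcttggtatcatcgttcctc
YPT52: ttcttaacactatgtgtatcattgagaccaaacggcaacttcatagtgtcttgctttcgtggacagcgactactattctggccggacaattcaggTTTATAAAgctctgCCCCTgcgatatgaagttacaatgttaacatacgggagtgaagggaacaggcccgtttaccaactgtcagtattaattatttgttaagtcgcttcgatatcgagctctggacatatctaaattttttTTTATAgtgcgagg
FPT1 held a stress response element 151 to 147 bases before its ATG, a CCAAT box on the other strand at 240 to 236, and TATA boxes at 233 to 228 and, on the other strand, at 130 to 125. YPT52 held a stress response element at 191 to 187 and 3 TATA matches, 2 of them overlapping each other and lying on opposite strands. The PRY2 window held none of the motifs in the forms searched. Only TATAAA was counted as a TATA box, and other TATA-like sequences, such as the alternating TATATA run in this window, were not. The TOF2 window, not printed, held CCAAT boxes at 93 to 89 and 65 to 61 and 1 TATA box. Among 6001 windows of the same kind, 19.2% held a stress response element, 36.3% a CCAAT box, 43.1% a TATA box, 10.4% a carbon source response element and 6.72% a Mig1 core, so each of the matches is common.

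The values are FPKM, fragments scaled by gene length and library total, as the authors deposited them, and can be compared between genes per length. Depth is not given. Steps among very low values placed the libraries at roughly 6310000 to 12660000 reads. The strain matched its markers: LEU2, MET17 and URA3 were listed at 0 in all libraries, the MATa receptor gene STE2 read 336 to 972 FPKM, and the MATα receptor gene STE3 1.85 to 12.4 FPKM. HIS3, only partly deleted in this background, read 51.0 to 104 FPKM.

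FPT1 was a gene of middling level in wild-type cells in glucose and rose close to 3-fold in ethanol. Its wild-type glucose values were 52.4, 51.9 and 51.9 FPKM, a mean of 52.1 ± 0.292 (SD, n = 3). Its wild-type ethanol values were 136, 150.1 and 158 FPKM, a mean of 148 ± 11.0 (SD, n = 3). All ethanol values lay above all glucose values, and how many other genes did the same was not counted. Among the genes tested, FPT1 moved from between the 47.8th and 49.4th percentile of level in glucose to between the 68.5th and 72.5th in ethanol, a measure that does not depend on how libraries are scaled. The log2 change of log2(FPKM + 1) was 1.49 ± 0.16 (SE; 95% interval 1.15 to 1.82; limma adjusted p = 8.3e-07), a factor of 2.80. The fit takes 1 spread per gene from all 14 libraries, including the deletion libraries, in which FPT1 is absent. The SE, interval and p therefore do not describe the spread of the wild-type libraries alone. The rise of FPT1 exceeded the change of 86.4% of all genes tested. Rises were common: of the genes tested, 75.3% were called, 50.5% higher and 24.8% lower, and the median change of all genes was 0.31. FPT1 kept a log2 change of 1.17 under median scaling and 1.11 under quantile normalization. The exact two-sided permutation test over the 3 libraries against 3 gave p = 0.1, the smallest that size allows.

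In the libraries labelled as deleted, FPT1 was at or near 0. In glucose the 4 deletion libraries read 0, 0.205, 0.153 and 0 FPKM. In ethanol they read 0.303, 0, 0 and 0.412 FPKM. The labels and the targeted gene therefore matched in all 14 libraries. By the step estimate the non-zero values correspond to between 1.09 and 3.41 reads. Libraries of both strain names were among them, NKI5620 at 0 in glucose and at 0.412 in ethanol. Where these few reads came from was not tested. The log2 difference from wild type was -5.61 in glucose and -6.998 in ethanol, sizes set by the pseudocount of 1, and FPT1 was 1 of 2 genes called in each medium (0.0319% of the genes tested; in glucose 0.016% were higher and 0.016% lower, and in ethanol both called genes were lower). For genes that are intact, bulk libraries like these cannot tell a change in the number of cells with a transcript from a change in transcript per cell.

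**Figure D1:**
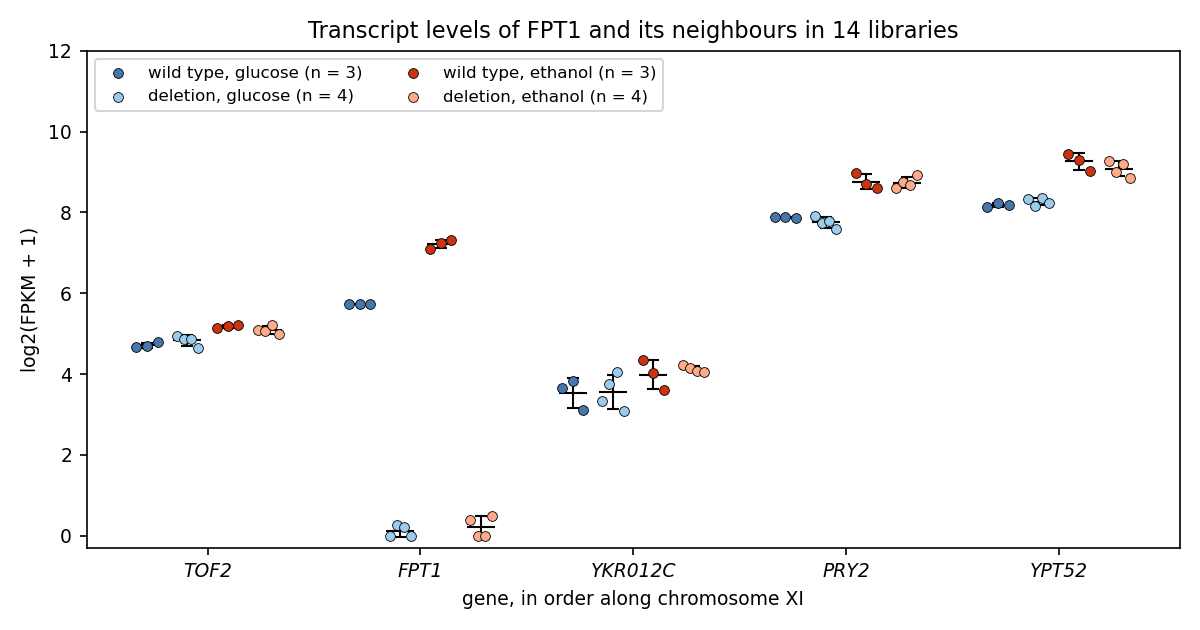
Level of FPT1 and its neighbours in each library, as log2(FPKM + 1), with genes in their order along chromosome XI. Points are libraries, and bars give the mean and SD of each group (3 wild-type or 4 deletion libraries). FPT1 lay near the bottom in all deletion libraries and well above in all wild-type libraries, while the 4 neighbours overlapped between genotypes in each medium.

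No neighbour was called between deletion and wild type in glucose. None of the 4 passed the test, beside 0.0319% of all genes, and wild-type and deletion libraries overlapped for each of them. TOF2, the next gene downstream, read 24.4, 25.0 and 26.5 FPKM in wild type and 30.0, 28.4, 28.3 and 24.0 in the deletion. Here 3 deletion libraries lay higher than every wild-type one and NKI5620 lower. Its log2 change was 0.12 ± 0.08 (SE), with a 95% interval of -0.05 to 0.29 and limma adjusted p = 0.55.

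PRY2, divergent from FPT1, read 234, 237 and 229.9 FPKM in wild-type glucose libraries and 241, 214, 219 and 191 in deletion libraries. Of the deletion libraries 1 lay above the wild-type range and 3 below it. The log2 change was -0.12 ± 0.10 (interval -0.33 to 0.10, limma adjusted p = 0.65). YPT52 read 279.8, 299 and 291 FPKM in wild type and 320.2, 284, 328 and 299.9 in the deletion. Its deletion libraries lay around and above the wild-type ones, with a log2 change of 0.08 ± 0.11 (interval -0.15 to 0.32, limma adjusted p = 0.76). YKR012C, the neighbour lowest in FPKM, read 11.7, 13.3 and 7.65 FPKM in wild type and 9.08, 12.5, 15.5 and 7.45 in the deletion. Its spread was wide in both, and the log2 change of 0.02 ± 0.23 had an interval of -0.48 to 0.52. For the 3 annotated neighbours the intervals leave room for levels in deletion cells between 0.794 and 1.25 times those in wild type, on the FPKM + 1 scale.

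The same held after 2 h in ethanol. TOF2 read 34.2, 35.7 and 36.1 FPKM in wild type and 32.9, 32.3, 36.0 and 30.7 in the deletion. Of the deletion libraries 3 lay under the wild-type range and 1 inside it, with a log2 change of -0.10 ± 0.08 (interval -0.27 to 0.07, limma adjusted p = 0.47). PRY2 read 503, 418 and 387 FPKM in wild type and 385, 429.9, 408 and 489 in the deletion. Its 2 groups covered nearly the same range, with a log2 change of -0.02 ± 0.10 (interval -0.24 to 0.19, limma adjusted p = 0.92). YPT52 read 700.0, 630.4 and 522 FPKM in wild type and 618, 510.0, 589.7 and 465 in the deletion. Deletion libraries lay within or below the wild-type range, and the log2 change was -0.18 ± 0.11 (interval -0.41 to 0.06, limma adjusted p = 0.33). YKR012C read 19.3, 15.2 and 11.2 FPKM in wild type and 17.8, 16.7, 15.9 and 15.5 in the deletion, all within the wild-type range. The exact two-sided permutation tests of the 4 neighbours gave p between 0.171 and 0.971 over both media (3 against 4 libraries). That size allows no p under 0.05 in this test. After Benjamini-Hochberg adjustment over all 17 such tests, p was 0.299 or more.

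With all 14 libraries, a wider window gave no call either. Besides the members, 6 annotated protein genes lie within 10000 bases of the FPT1 coding region: MEH1, of the vacuolar EGO complex, RSC4, of the RSC chromatin remodeller, FOX2, an enzyme of peroxisomal fatty acid oxidation, YKR015C, MIC60, of the mitochondrial MICOS complex, and HEL1, a ubiquitin ligase gene. None passed in either medium. In glucose the largest estimate was 0.34 for YKR015C (interval -0.21 to 0.88), HEL1 stood at 0.29 (interval 0.01 to 0.57, unadjusted p = 0.042, limma adjusted p = 0.42), and their median was 0.14 beside 0.08 for all genes. In ethanol FOX2 stood lowest at -0.50 (interval -0.86 to -0.14, unadjusted p = 0.011, limma adjusted p = 0.12), and their median was -0.16 beside -0.04. Across chromosome XI, 309 genes other than the members were tested, of which 1 was called in glucose and none in ethanol (limma; lowest adjusted p = 0.11 in ethanol). In ethanol the count over the whole table depended on 2 libraries: without wild-type replicate 3 it was 964 and without deletion replicate 1 it was 912, and FPT1 remained the only member called in each case. Without wild-type replicate 3, FOX2 was called lower in deletion cells, at -0.70 (limma adjusted p = 0.014), and 58 of the 309 genes of chromosome XI were called. Without deletion replicate 1 no gene of the window was called and 55 of the 309 were.

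**Figure D2:**
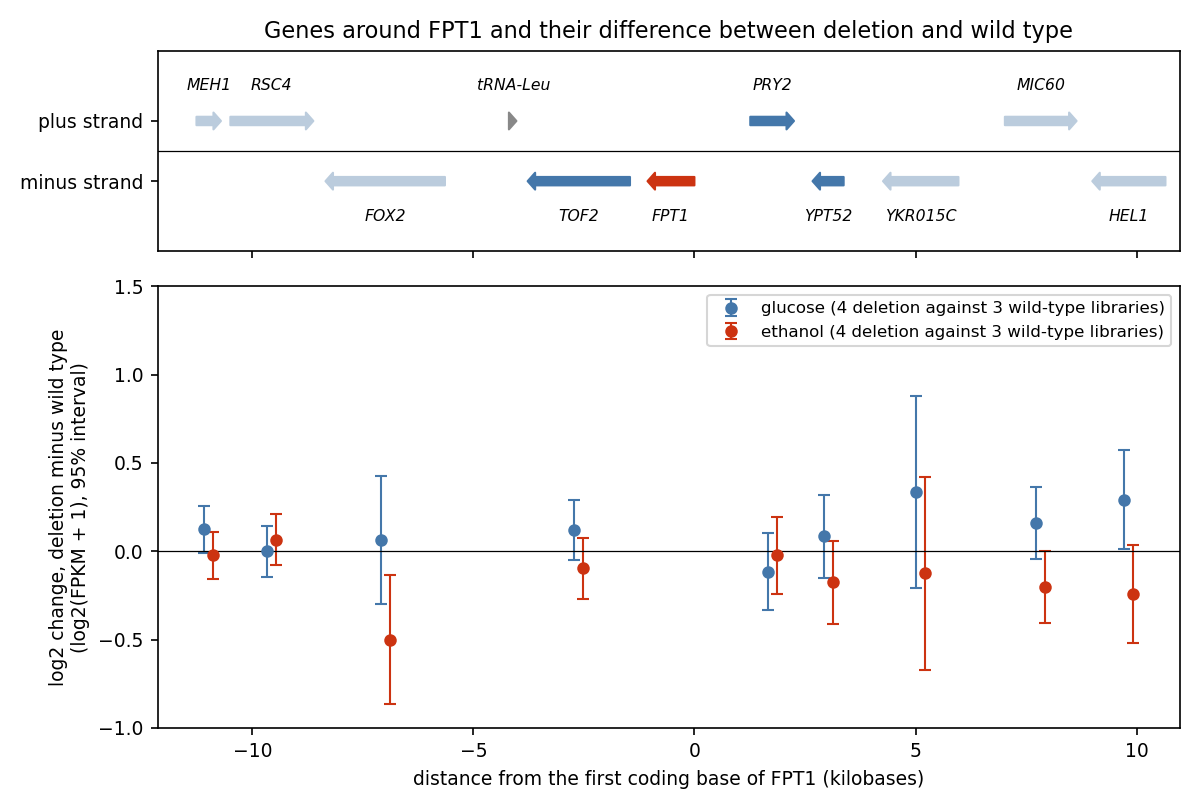
Top, genes within 10000 bases of FPT1 drawn to scale as arrows in the direction of transcription, with FPT1 in red and annotated neighbours among the members in dark blue. Bottom, log2 change between deletion and wild type for each protein gene with its 95% interval, against distance from the first coding base of FPT1. Of the members shown, TOF2, PRY2 and YPT52 had intervals that held 0 in both media.

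TOF2, PRY2 and YPT52 also rose in ethanol, with smaller estimates than FPT1; the differences between genes were not tested. In wild type PRY2 went from 234 ± 3.71 to 436 ± 60.04 FPKM and YPT52 from 290.0 ± 9.59 to 617 ± 89.9 (SD, n = 3). Ethanol libraries lay above glucose libraries without overlap for both. The share of all genes without overlap was not counted, and 75.3% of all genes were called between media. The log2 changes were 0.89 ± 0.11 for PRY2 (interval 0.66 to 1.12, limma adjusted p = 3.7e-06) and 1.08 ± 0.12 for YPT52 (interval 0.83 to 1.33, limma adjusted p = 1.1e-06). TOF2 went from 25.3 ± 1.10 to 35.3 ± 0.984 FPKM, a log2 change of 0.47 ± 0.08 (limma adjusted p = 1.7e-04), also without overlap. YKR012C went from 10.9 ± 2.89 to 15.2 ± 4.03 FPKM with overlapping libraries, and its change of 0.45 ± 0.25 was not called (limma adjusted p = 0.11). So 4 of the 5 members were called higher in wild type, where 50.5% of all genes were, and none lower.

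Among the changes of all genes tested, those of PRY2 and YPT52 ranked higher than those of TOF2 and YKR012C. PRY2 exceeded the change of 72.7% of genes and YPT52 that of 78.2%, while TOF2 and YKR012C, at 57.0% and 56.3%, sat near the middle. By percentile of level, PRY2 moved from between 83.8 and 84.1 to between 86.9 and 88.8, and YPT52 from between 86.2 and 86.9 to between 89.7 and 91.6. TOF2 moved from between 26.3 and 29.5 to between 30.5 and 31.5, and YKR012C covered 14.2 to 18.7 and then 13.8 to 19.4. Under median scaling, which takes out the shift of all genes, TOF2 stood at 0.15 (limma adjusted p = 0.073) and was no longer called, nor was it under quantile normalization, at 0.15 (limma adjusted p = 0.062). PRY2 kept its call under both, at 0.56 and 0.44, as did YPT52, at 0.75 and 0.60.

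The deletion cells showed the same order among the annotated neighbours except that PRY2 had the largest estimate. PRY2 went from 216 ± 20.3 to 428 ± 44.6 FPKM (SD, n = 4), a log2 change of 0.98 ± 0.09 (limma adjusted p = 3.6e-07). YPT52 went from 308 ± 20.0 to 546 ± 70.9, a change of 0.82 ± 0.10 (limma adjusted p = 4.7e-06). TOF2 went from 27.7 ± 2.54 to 33.0 ± 2.22, a change of 0.25 ± 0.07 (limma adjusted p = 0.0073). Ethanol libraries lay above glucose libraries for all 3, and the exact two-sided permutation test of 4 against 4 gave p = 0.0286 for each, the smallest possible (0.162 after adjustment over 17 tests). Here too, the share of all genes without overlap was not counted. YKR012C went from 11.1 ± 3.60 to 16.5 ± 1.03 FPKM, with 1 glucose value, 15.5, level with the lowest ethanol value, and passed at 0.57 ± 0.21 (limma adjusted p = 0.027). The call of YKR012C was lost without glucose replicate 1 or 4 or without ethanol replicate 1 or 2 of the deletion, with limma adjusted p between 0.051 and 0.093. All 4 neighbours were thus called higher, where 46.9% of all genes were (74.5% called in all, 27.7% lower). The calls of TOF2 and YKR012C were lost under median scaling, at 0.04 and 0.37, under quantile normalization, at 0.05 and 0.17, and when libraries were set to the same total, at 0.08 and 0.41.

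**Figure D3:**
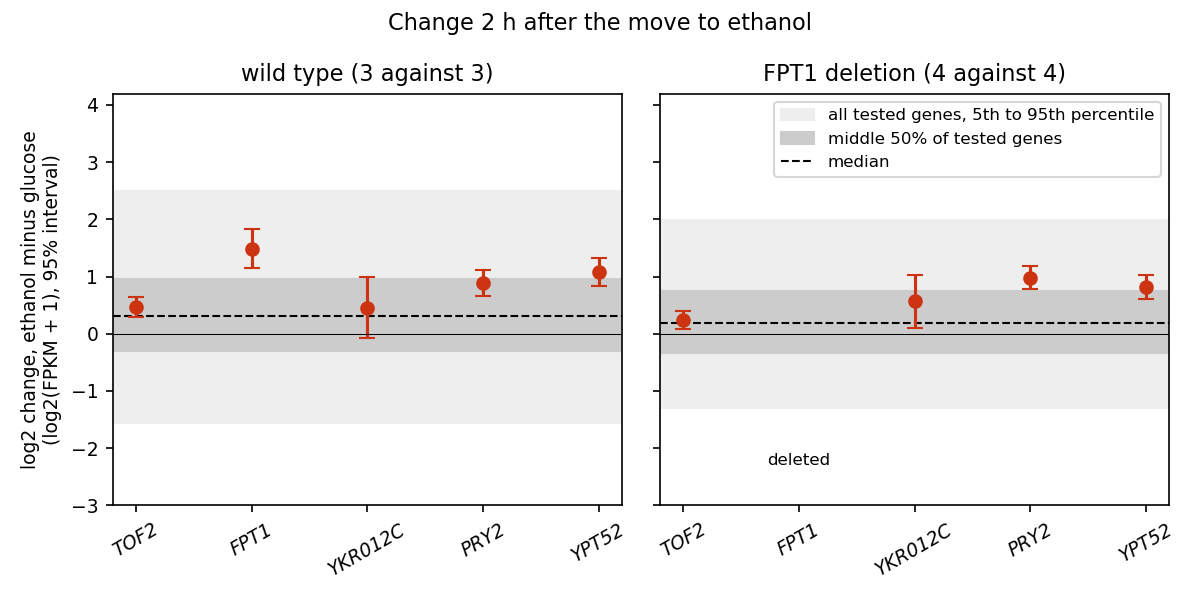
Log2 change between ethanol and glucose for each member with its 95% interval, in wild type (left) and in FPT1 deletion cells (right), over bands that give the spread of all 6267 genes tested. In wild type FPT1 stood at 1.49, above the band of the middle 50% of genes, and TOF2 at 0.47 near the dashed median of 0.31.

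The response itself did not pass a test of difference between genotypes for any neighbour. The difference of log2 changes, deletion minus wild type, was -0.22 ± 0.11 for TOF2 (interval -0.46 to 0.02), 0.09 ± 0.14 for PRY2 (interval -0.21 to 0.40), -0.26 ± 0.15 for YPT52 (interval -0.59 to 0.07) and 0.12 ± 0.33 for YKR012C (interval -0.59 to 0.83), with limma adjusted p between 0.23 and 0.84. Limma called 0 of 6267 genes in this comparison, of which 1603 had an unadjusted p under 0.05, and the median difference of all genes was -0.12. The count rested on 2 libraries: it was 654 without wild-type ethanol replicate 3 and 844 without deletion ethanol replicate 1, with FPT1 the only member called in each. FPT1 has no transcript to respond in deletion cells, so its own difference only restates the deletion. The genotype and medium comparisons share their libraries and are not independent of each other.

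The order of levels per gene length was nearly the same everywhere. In wild-type glucose libraries YPT52 was highest, 1.24 times PRY2, which stood 4.49 times above FPT1. FPT1 stood 2.06 times above TOF2, and TOF2 2.33 times above YKR012C. No 2 neighbours in that order overlapped. The place of YKR012C is uncertain, since its reads and those of PRY2 cannot be told apart with certainty and its gene model is not given. In wild-type ethanol libraries the order was kept, with PRY2 at 2.94 times FPT1 and FPT1 at 4.19 times TOF2. In deletion libraries FPT1 dropped to the bottom and the rest kept their order, with YPT52 and PRY2 overlapping in ethanol. The coefficient of variation within a group was 0.562% and 7.42% for FPT1 in wild type, lay between 1.59% and 14.6% for PRY2 and YPT52 and between 2.78% and 9.17% for TOF2, and ranged from 6.23% to 32.3% for YKR012C.

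Genes with the pattern most like each member were taken by the smallest root mean square difference of log2(FPKM + 1), after removing each gene's mean. Over the 6 wild-type libraries the 5 nearest to FPT1 were YAK1, a protein kinase that restrains growth when glucose is scarce, at 0.03, PMC1, the vacuolar calcium pump, at 0.04, YLR257W at 0.04, NTH1, the neutral trehalase, at 0.04, and UPS2, a mitochondrial phospholipid transfer factor, at 0.06. Their own changes in ethanol lay between 1.46 and 1.55, none lies on chromosome XI, and 43 of the other 6266 genes were nearer than 0.1. The 6 libraries form 2 media, so many genes must look alike by this measure. YPT52 was the member nearest to FPT1 in wild type, at 0.28, and ranked 859th.

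Over all 14 libraries the genes nearest to YPT52 were RNR4, a ribonucleotide reductase subunit, VPS25, of the endosomal ESCRT-II complex, and YMR155W, at 0.07 to 0.08. PRY2 was nearest to ERV25, of the vesicle coat cargo receptors, ADH3, the mitochondrial alcohol dehydrogenase, and ABF2, which packages mitochondrial DNA, at 0.10 to 0.11. TOF2 was nearest to PIH1, ALY1 and NPP2, at 0.05 to 0.06, and 136 genes were nearer to it than 0.1. YKR012C had no gene that near, its closest being PEX9 at 0.20. YPT52 and PRY2 differed from each other by 0.19.

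In ethanol most polymerase subunit genes of the machinery on which Fpt1 acts fell. As deposited, genes of its initiation factor TFIIIC rose or were not called. Of 21 genes of RNA polymerase III, its initiation factors and MAF1, 11 fell and 7 rose in wild type in ethanol, with a median of -0.30 beside 0.31 for all genes, and 11 fell and 4 rose in deletion cells, with a median of -0.20 beside 0.19. Over all genes tested, 24.8% fell and 50.5% rose in wild type, and 27.7% and 46.9% in deletion cells. Under median scaling 14 fell and 3 rose in wild type, and 14 and 2 in deletion cells. The shares of all genes just given are those without scaling. With median scaling the median change of all genes was 0.001 in wild type and -0.02 in deletion cells. Shares of all genes by direction are not given for that scaling. With median scaling 109 of the 309 other genes of chromosome XI fell and 135 rose in wild type, and 112 and 123 in deletion cells. MAF1 rose by 1.60 in wild type and 1.13 in the deletion, and TFC3, of the initiation factor TFIIIC, by 0.89 and 0.56. As deposited, the initiation factor genes BRF1, TFC4, TFC6, TFC7 and TFC8 also rose in wild type, and TFC6 and TFC8 in deletion cells. Of these, TFC6 alone stayed called higher in wild type under median scaling, where TFC1 was called lower at -0.18. RPC53 and RPC82, polymerase subunits, changed by -1.65 and -1.60 in wild type and by -1.28 each in the deletion. With all 14 libraries limma called no gene of the list between genotypes in either medium (lowest adjusted p = 0.37 in glucose and 0.11 in ethanol). The ethanol count depended on the same 2 libraries. Without wild-type replicate 3, 5 genes were called, all higher in deletion cells, among them RPC82 at 0.48 and RPC53 at 0.57. Without deletion replicate 1, 7 were called higher, RPC82 at 0.41 and RPC53 at 0.49 included, and TFC6, of TFIIIC, was called lower at -0.26.

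Around YPT52, more genes of the endosomal Rab5 pathway rose than fell. Of 21 genes, the other Rab5-type GTPases and their partners, 16 rose and 1 fell in wild type, with a median of 0.60 beside 0.31 for all genes, and 14 rose and 3 fell in deletion cells, with a median of 0.41 beside 0.19. Of all genes tested, 50.5% rose and 24.8% fell in wild type, and 46.9% and 27.7% in deletion cells. Under median scaling 13 rose and 4 fell in wild type, with a median of 0.28, and 12 rose and 5 fell in deletion cells, with a median of 0.20. Among the 309 other genes of chromosome XI, 135 rose and 109 fell in wild type with that scaling, and 123 and 112 in deletion cells. The median of all genes was then 0.001 in wild type and -0.02 in deletion cells, and the shares of all genes above are without scaling. The paralogue YPT53 rose most, from 1.77 ± 1.38 to 33.4 ± 7.37 FPKM in wild type (SD, n = 3), a log2 change of 3.73 (limma adjusted p = 9.4e-08). VPS21, the main Rab5 gene of yeast, rose by 0.99, from 305 ± 0.889 to 608 ± 29.4 FPKM, near the levels of YPT52. PEP12, an endosomal syntaxin, rose by 1.86, and ROY1, whose product is known to bind and inhibit Ypt52, by 1.06. PEP5, of the CORVET and HOPS tethers, was the member that fell, by 0.29. In deletion cells YPT53 and PEP12 rose by 3.33 and 1.32, and PEP5 and VPS33 fell by 0.34 and 0.31. No gene of the list was called between genotypes with all 14 libraries (lowest limma adjusted p = 0.36 in glucose and 0.11 in ethanol). In ethanol VPS45, which binds the endosomal syntaxin, was called lower in deletion cells without wild-type replicate 3, at -0.21, and without deletion replicate 1, at -0.20, where PEP12 was called as well, at -0.33. In both runs calls rose over the whole table, as given above.

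The PRY2 relatives split. PRY1, which shares the secreted sterol-binding role, rose from 289 ± 36.0 to 853 ± 123 FPKM in wild type, a log2 change of 1.55 beside 0.89 for PRY2. PRY3, a cell wall member of the family, fell by 0.82, from 36.4 ± 3.56 to 20.6 ± 5.09 FPKM. SAY1, the sterol deacetylase, rose by 0.85, and ATF2, the acetyltransferase that opposes it, changed by -0.91. All 4 directions held in deletion cells, at 1.73, -0.80, 0.70 and -0.38, each called by limma. Calls were common, at 75.3% of all genes tested in wild type and 74.5% in deletion cells. The median of these 4 genes was 0.01 in wild type, or -0.30 under median scaling, so the list as a whole had no direction. Between genotypes none of the 4 was called with all 14 libraries, while in ethanol ATF2 was called higher in deletion cells without wild-type replicate 3, at 0.58, and without deletion replicate 1, at 0.50. These are the runs in which calls rose over the whole table.

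TOF2 and its own relative moved apart. NET1, the related nucleolar anchor of Cdc14, fell from 82.4 ± 0.832 to 35.5 ± 5.47 FPKM in wild type (log2 change -1.20, limma adjusted p = 3.9e-08), where TOF2 rose by 0.47 as deposited and was not called after median scaling. Of 11 genes of ribosomal DNA silencing and mitotic exit, 3 rose and 4 fell in both genotypes, with medians of -0.08 in wild type and -0.07 in the deletion, beside 50.5% and 46.9% of all genes that rose and 24.8% and 27.7% that fell. The counts became 3 and 7 in wild type and 2 and 7 in the deletion under median scaling. With that scaling 135 of the 309 other genes of chromosome XI rose and 109 fell in wild type, and 123 and 112 in the deletion. The shares of all genes above are without scaling. CSM1, of the monopolin complex that tethers the ribosomal DNA, rose by 0.85 and SPO12, a mitotic exit factor, by 0.71, while CDC14 changed by -0.57. In deletion cells NET1 stood at -1.19, CSM1 at 0.95, SPO12 at 0.79 and CDC14 at -0.42, and TOP1, the topoisomerase, at -0.51. None was called between genotypes, with all 14 libraries or with any 1 of them left out (limma; lowest adjusted p with all libraries 0.37 in glucose and 0.41 in ethanol).

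**Figure D4:**
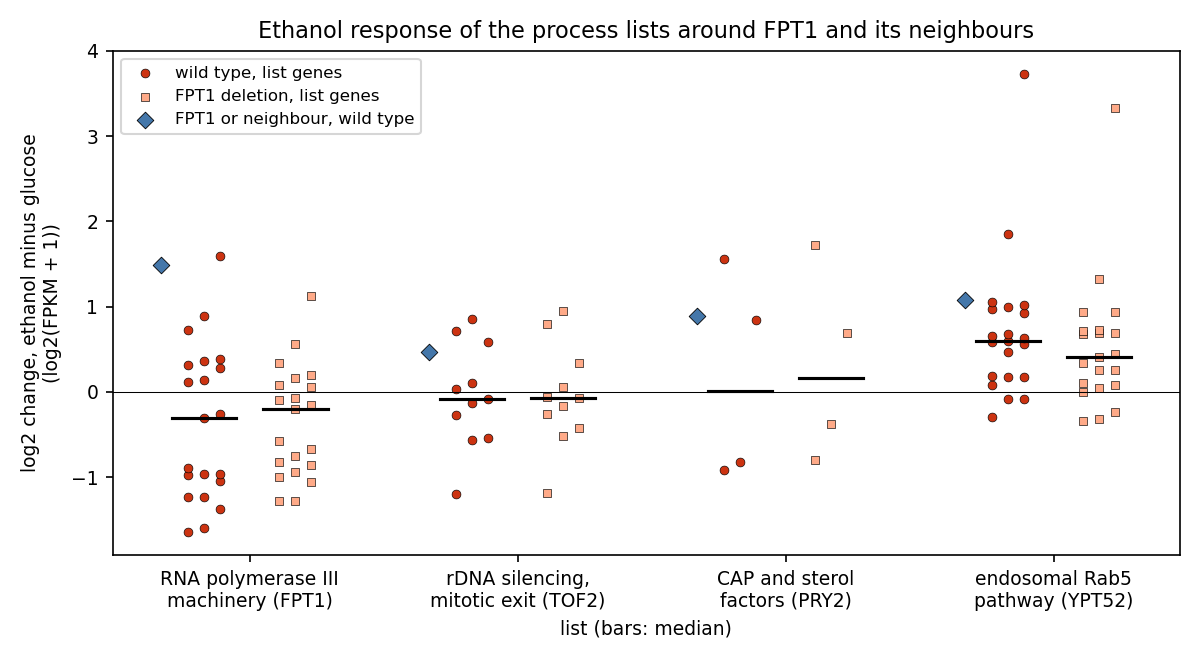
Log2 change between ethanol and glucose of each gene of 4 process lists in wild type (circles) and FPT1 deletion cells (squares), with bars at the median and a diamond for the member each list was built around. The RNA polymerase III list had a median of -0.30 in wild type while FPT1 stood at 1.49, and the Rab5 list a median of 0.60 with YPT53 highest at 3.73.

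The genes around FPT1 mostly rose in ethanol as well. Of the 9 annotated protein genes within 10000 bases, FPT1 left out, 8 rose in wild type and 7 in deletion cells, and none fell, with medians of 0.89 and 0.49 beside 0.31 and 0.19 for all genes. Of all genes tested, 50.5% rose in wild type and 46.9% in deletion cells. In wild type FOX2 stood at 1.56, MIC60 at 1.09, HEL1 at 1.01, YKR015C at 0.71 and MEH1 at 0.64, and RSC4 was not called at -0.05. Under median scaling 6 rose and 1 fell in each genotype, with medians of 0.57 and 0.27 beside 0.001 and -0.02 for all genes. Of the 309 other genes of chromosome XI, 177 rose and 78 fell in wild type, with a median of 0.41. Under median scaling 135 rose and 109 fell, with a median of 0.09, and under quantile normalization 128 and 116, with a median of 0.01. In deletion cells 123 rose and 112 fell under median scaling.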

How the data were processed

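RNA was purified on columns, DNase-treated, prepared as strand-marking mRNA libraries and sequenced as single reads of 65 bases, per the labels' protocols. The authors deposited 1 table of FPKM values with a column per library. STAR 2.7.1a and build sacCer3 are named per the submitters' processing notes, while the sources used here name no counting tool, gene models or strand setting. sacCer3 and R64 name the same assembly, and the table holds no coordinates. The FPKM were used as deposited, as log2(FPKM + 1), which understates changes of low genes. Tested were the 6267 of 6664 genes that reached 1 FPKM in 3 or more of 14 libraries, with limma 3.58.1 in R 4.3.3 (1 mean per group, mean-variance trend), in 5 two-sided comparisons, each adjusted by Benjamini-Hochberg over all genes tested at a threshold of 0.05. The fit was tested on simulated data. Libraries were grouped by sample title. Single members were also compared by exact permutation of libraries. Read estimates come from FPKM steps in coding regions of at least 900 bases, taken 200 bases shorter. Of the low values used, 60.9% to 94.1% per library lay within 0.15 of a whole number of reads, so whole reads were not recovered and no count model was used. Alternatives changed the pseudocount, filter, scaling, trend, libraries and replicate block. Members, lists and motifs were chosen with earlier results of these data known. Named besides the members were genes called within 10000 bases and FOX2, the 2 largest rises and falls per process list with set paralogues and MAF1, and the 5 or 3 nearest in pattern. RSC4, ROY1, VPS33 and the other genes outside that rule were named after their values were seen.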

Additional observations from a re-analysis of the deposited data

How the results depend on the processing

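The call of FPT1 between deletion and wild type follows from the deletion itself. It was kept under every alternative run in both media, with log2 changes from -8.29 to -3.49 in glucose and -9.44 to -4.88 in ethanol, the ends set by the pseudocount. The rise of FPT1 in wild-type ethanol stayed called, between 1.11 and 1.504 over other settings (highest limma adjusted p = 0.045) and 1.44 to 1.55 with 1 library left out. No other member was called between genotypes under any alternative run, but estimates near 0 changed sign: in glucose TOF2 stood at -0.0027 under quantile normalization, YKR012C at -0.068 under median scaling and -0.12 under quantile normalization, and YPT52 at -0.0069 under median scaling. PRY2 in ethanol stood at 0.025 under quantile normalization, and the wild-type ethanol change of YKR012C at -0.078. With 1 library left out, YKR012C ranged from -0.19 to 0.18 in glucose, from -0.052 to 0.31 in ethanol and from -0.070 to 0.33 for the difference of responses, and PRY2 from -0.11 to 0.084 in ethanol. Without both NKI5620 libraries the difference of responses was -0.011 for YKR012C and -0.030 for PRY2. Members called higher in deletion cells in ethanol went from 4 to 2 under median scaling, quantile normalization and equal totals. Genes called in either direction for that comparison numbered 4461 to 4733 over the other settings. For the difference of responses, 1 member, FPT1, was called with pseudocount 5, without the filter, without the trend or without both NKI5620 libraries, and 0 to 1 with 1 library left out. The causes were not tested. Genes called over the whole table for this difference numbered 0 to 844 with 1 library left out. Leaving out single libraries for the process lists and the window was added after seeing the data; in glucose it called no gene of either.

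Samples with the same replicate number did not all deviate together: r over genes was -0.42 to -0.06 between media in wild type, -0.08 to 0.17 in the deletion, 0.32, 0.21 and -0.09 between genotypes in ethanol, and -0.06, -0.26 and 0.01 in glucose, so the numbers were not taken to pair them. With the replicate block, FPT1 stood at -5.64 in glucose, -7.02 in ethanol and 1.49 for the wild-type change, 4 members were called in each genotype between media, and the genes called between genotypes went from 2 to 1 in each medium. Genes called between media, over this and the other settings, numbered 4498 to 4735 in wild type and 4461 to 4733 in the deletion.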

Other observations

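Of the 6 genes around FPT1 that are no members, 5 had smaller estimated ethanol changes in deletion cells than in wild type, with differences of -0.57 for FOX2, -0.53 for HEL1, -0.46 for YKR015C, -0.36 for MIC60 and -0.15 for MEH1 on the log2 scale, while RSC4 stood at 0.06. With all 14 libraries none was called (limma adjusted p between 0.14 and 0.69), and the median difference over all genes was -0.12. Of the 309 genes of chromosome XI other than the members, only 92 had a difference above 0. Smaller changes in deletion cells were thus common beyond these genes. HEL1 went from a change of 1.01 in wild type to 0.48 in deletion cells, MIC60 from 1.09 to 0.73, YKR015C from 0.71 to 0.25 and FOX2 from 1.56 to 1.00. Without wild-type ethanol replicate 3 FOX2 was called, at -0.77, and without deletion ethanol replicate 1 HEL1 and MIC60 were, at -0.64 and -0.43. In the same runs 43 and 63 of the 309 genes of chromosome XI other than the members were called. The 6 genes around FPT1 were singled out after their values were seen.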
